A study of Mus musculus with 12 samples.

Results

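The 10 genes described here encode the 5 subunits of the transcription factor NF-kappaB and 5 proteins that restrain or tune it. The subunits are Rela, Rel, Relb, Nfkb1 and Nfkb2. The inhibitor family members are Nfkbia and Nfkbie, whose products hold dimers in the cytoplasm, and Nfkbiz and Bcl3, whose products act in the nucleus. The tenth gene, Tnfaip3, encodes the ubiquitin-editing enzyme A20, which ends the signal upstream. The genes were listed by name, with earlier results of these data known, and each matched 1 identifier among the 36439 genes of the count tables. All 10 passed the filter on low counts in both comparisons below.

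RNA was sequenced from tumour-associated macrophages (TAMs) of Lewis lung carcinoma, a transplantable mouse lung tumour, which had been grown under the skin of C57BL/6 mice. In a first experiment, 3 libraries were made from F4/80+MRC1+ TAMs and 3 from F4/80+CD11c+ TAMs, where MRC1 is the mannose receptor and CD11c an integrin also carried by dendritic cells. In a second experiment, 3 libraries came from F4/80+ TAMs overexpressing miR-511-3p, a microRNA hosted by the Mrc1 gene, and 3 from F4/80+ TAMs overexpressing a mutated miR-511-3p as the control. The labels of the second experiment name both constructs with SFFV, a retroviral promoter that is not specific to macrophages. Each of the 4 groups thus holds 3 libraries. The labels give no age and do not say whether numbered libraries came from separate mice or pools. The p-values thus set group differences against the spread between libraries of a group, and that spread can be partly technical.

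NF-kappaB is a family of dimers that wait in the cytoplasm bound to inhibitor proteins. Signals from Toll-like receptors, cytokine receptors and antigen receptors activate a kinase complex that marks the inhibitors for destruction, and the freed dimers enter the nucleus. Among the first genes they switch on are those of their own inhibitors and of Tnfaip3, so that the response limits itself. In macrophages and dendritic cells the pathway drives inflammatory cytokines, and the subunit c-Rel, the product of Rel, is known for its role at the Il12b gene.

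Levels are CPM, read counts relative to the reads on genes of a library, scaled by the trimmed mean of M-values (TMM) over the 12 libraries. Libraries held 10824918 to 27890433 reads on genes, and the members had from 169 reads (Bcl3 in the first MRC1+ library) to 26921 reads (Tnfaip3 in the third). Mrc1 and Itgax, the genes of the markers that set the gates apart, followed the labels. Mrc1 stood at 3611 ± 265 CPM in MRC1+ and 1547 ± 184 CPM in CD11c+ TAMs, and Itgax, which encodes CD11c, at 97.3 ± 21.1 and 946 ± 53.5 CPM (SD, n = 3). Adgre1, which encodes the marker shared by both gates, also differed. It stood at 1065 ± 98.5 CPM in MRC1+ and 614 ± 107 CPM in CD11c+ TAMs (log2 fold change 0.797; edgeR adjusted p = 0.00733). Of 10 macrophage markers 2 passed the test as higher in MRC1+ TAMs, Adgre1 and Mertk, and none as lower. Dendritic cell markers were higher in the CD11c+ libraries. Of 10 markers of conventional dendritic cells 9 passed the test as lower in MRC1+ TAMs, none was at 0, and the list summed to 45.8 to 50.6 CPM against 265 to 391 CPM. Of 10 markers of mature migratory dendritic cells 8 were lower, with sums of 347 to 362 CPM against 619 to 920 CPM. Most of these sums came from 1 gene, Tmem123, at 266.9 to 300.5 against 412.8 to 525.7 CPM. Monocyte markers moved the same way, with 6 of 8 lower in MRC1+ TAMs, among them Ccr2 at 214 to 364 against 1244 to 1518 CPM, and 1 higher, F13a1. The monocyte list summed to 2910 to 3272 and 2593 to 3327 CPM. Of 6 epithelial and carcinoma markers 4 were higher and 2 lower in MRC1+ TAMs, with sums of 144 to 210 against 118 to 170 CPM, and none of either list was at 0. The first CD11c+ library stood apart from the other two of its group, with fibroblast markers at 1140 CPM against 259 and 316 CPM and macrophage markers at 5167 CPM against 6772 and 7348 CPM. In the MRC1+ libraries fibroblast markers summed to 591 to 829 CPM, also above those 2 CD11c+ libraries, and macrophage markers to 6157 to 7073 CPM. In these bulk libraries more cells of a type and more RNA per cell cannot be told apart, and the part of dendritic cells, monocytes, tumour cells or the first CD11c+ library in the differences below was not tested.

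The NF-kappaB recognition site, the kappaB site, is a sequence of 10 bases, and several of the members are textbook targets of the factor they encode or restrain. RefSeq promoter windows (GRCm38.p6, 250 bases before to 50 after a start site) were found for 7 of the 10 members, and not for Relb, Nfkb1 and Nfkbiz. The loose form, GGG and CC with any 5 bases between them, read on both strands, was in the windows of 7 of the 7 members and of 53.52% of 27025 genes. A stricter form adds a purine at position 4 and pyrimidines at positions 7 and 8, and was chosen after the loose form had been seen. It was in the windows of 6 of the 7 members, all but Rela, and of 9.55% of genes. The following 60-base stretches show it for the members whose levels are described below, 5′ to 3′ on the gene's strand, with the strict matches in capitals.

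Rel, chr11:23771027-23771086, minus strand: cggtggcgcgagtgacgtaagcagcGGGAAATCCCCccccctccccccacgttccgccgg

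Nfkb2, chr19:46304687-46304746, plus strand: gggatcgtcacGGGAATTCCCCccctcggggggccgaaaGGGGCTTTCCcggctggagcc

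Nfkbia, chr12:55492642-55492701, minus strand: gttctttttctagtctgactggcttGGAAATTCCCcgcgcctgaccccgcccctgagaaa

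Nfkbie, chr17:45555569-45555628, plus strand: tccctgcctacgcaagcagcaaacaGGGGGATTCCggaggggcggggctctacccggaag

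Tnfaip3, chr10:19015388-19015447, minus strand: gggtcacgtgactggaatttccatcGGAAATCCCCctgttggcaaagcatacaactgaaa

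Bcl3, chr7:19822731-19822790, minus strand: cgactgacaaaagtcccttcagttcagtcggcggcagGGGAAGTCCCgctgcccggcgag

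In Rel the 11 capitals hold 2 overlapping matches, the first starting 92 bases before the start site. In Nfkb2 the first run also holds 2 overlapping matches and the second run 1. Those shown for Nfkbia and Tnfaip3 start 29 and 12 bases before the start site. Tnfaip3 had another strict match 125 bases before that site, and a window of another start site without one. Nfkb2 had further windows of other start sites with strict matches, which are not shown. A match describes the letters only and is not a measured binding site, and none of these libraries measured binding.

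The sorted experiment asks how MRC1+ and CD11c+ TAMs differ. Rel and Nfkb1 were lower in MRC1+ TAMs, Rel by 2.74-fold and Nfkb1 by 1.40-fold, while the ranges of Rela in the 2 groups overlapped almost wholly. All 10 members had a log2 fold change below 0, as did 48.5% of the 15622 genes tested, and the members' median was -0.465 against 0.012 over all genes. In edgeR, with p-values adjusted over all genes tested by the Benjamini-Hochberg method, 2 of 10 members passed at 0.05, both lower, beside 16.6% of all genes in either direction and 9.71% lower. The labels do not say that library numbers mark pairs. Libraries with the same number deviated together in the counts, weakly for the first ones (correlation of 0.104 here and 0.147 in the overexpression experiment). With that number as a block, a pairing taken from the data alone, 5 of 10 members passed as lower. Beside them stood 10.6% of all genes lower and 17.8% in either direction.

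**Figure D1:**
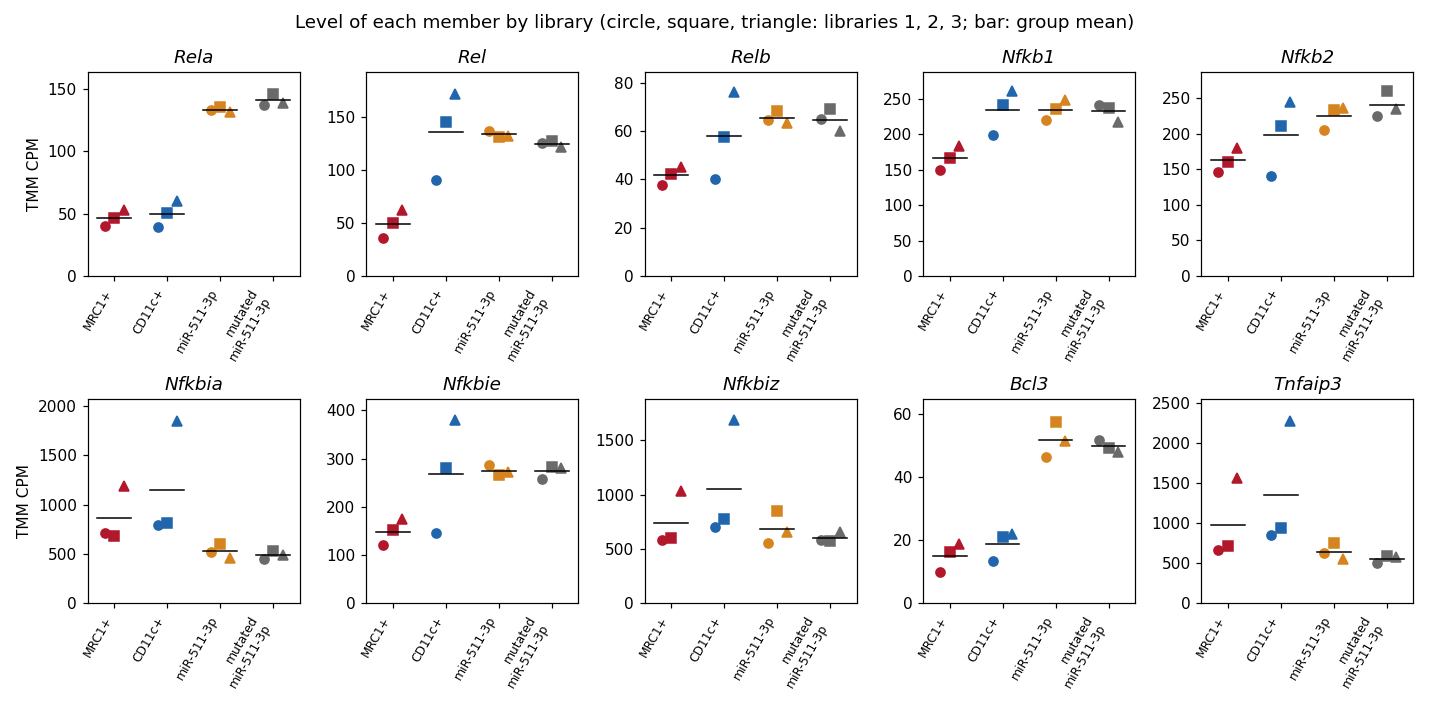
Level of each of the 10 members in every library, in TMM CPM, with circles, squares and triangles for libraries 1, 2 and 3 and a bar at the group mean. Rel and Nfkb1 separate the MRC1+ from the CD11c+ libraries, and all 10 members are highest in the third library of both sorted groups.

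Rel stood at 35.5, 50.04 and 62.5 CPM in the MRC1+ libraries and at 90.3, 145 and 171 CPM in the CD11c+ libraries. The highest MRC1+ library lay below the lowest CD11c+ library, and within both groups the first library was the lowest and the third the highest. The log2 fold change was -1.45 ± 0.26 (SE, n = 3 per group; edgeR adjusted p = 0.00835, and 0.000363 with the block). It passed in each of the 6 fits that left out 1 library, with adjusted p of 0.000558 to 0.0341. Against the CD11c+ library of the same number, Rel was lower by similar amounts in all 3 pairs, with log2 differences of -1.34, -1.53 and -1.45.

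Nfkb1, which encodes the p105 precursor of the p50 subunit, stood at 150, 167 and 183 CPM in MRC1+ and 199, 241 and 261 CPM in CD11c+ TAMs. The groups did not overlap, which was true of 2 members, Rel and Nfkb1, and of 19.9% of all genes in this direction. The log2 fold change was -0.48 ± 0.12 (SE, n = 3 per group; edgeR adjusted p = 0.0338, and 0.00998 with the block). This call was lost without any 1 library other than the first CD11c+ one. The edgeR adjusted p was 0.103, 0.103 and 0.0536 without the first, the second or the third MRC1+ library. It was 0.101 and 0.0899 without the second or the third CD11c+ library. In these fits the log2 fold change was -0.565 to -0.385, and 8.02% to 12.1% of all genes were called, against 16.6% with every library. The call was also lost when libraries were scaled by their totals alone (edgeR adjusted p = 0.0669).

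The other 3 subunits did not pass the test. Rela, the transactivating partner of p50 in the classical dimer, stood at 40.5, 46.5 and 53.3 CPM in MRC1+ and 39.1, 50.7 and 60.1 CPM in CD11c+ TAMs. Its log2 fold change was -0.09 (95% interval -0.47 to 0.29; edgeR adjusted p = 0.746), and the sign changed to 0.05 with scaling by library totals. That scaling moved the median of all genes by 0.125 on the log2 scale and the share of calls that were lower from 58.4% to 40.4%. Relb and Nfkb2 encode the partners of the alternative arm, RelB and the p100 precursor of p52. Relb stood at 37.7, 42.3 and 45.1 against 40.1, 57.6 and 76.3 CPM, with a log2 fold change of -0.47 ± 0.21 (SE; edgeR adjusted p = 0.157). Nfkb2 stood at 146, 160 and 180 against 140, 210 and 244 CPM, with a log2 fold change of -0.29 ± 0.19 (SE; edgeR adjusted p = 0.328). In both genes the first CD11c+ library, which carried the high fibroblast and low macrophage markers, lay within or below the MRC1+ range. Without it both passed, with edgeR adjusted p of 0.00616 for Relb and 0.0142 for Nfkb2. That fit called 29.6% of all genes, against 16.6% with every library.

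The 2 cytoplasmic inhibitors differed in how far the libraries of a group lay apart. Nfkbie, which encodes the inhibitor known to bind c-Rel and RelA dimers, stood at 120, 153 and 174 CPM in MRC1+ and 145, 280 and 379 CPM in CD11c+ TAMs. Only the first CD11c+ library fell inside the MRC1+ range. The log2 fold change was -0.84 ± 0.31 (SE, n = 3 per group; edgeR adjusted p = 0.0969), and it passed with the block (0.0251), in DESeq2 (0.0151) and without the first CD11c+ library (0.00182). Those fits called 17.8%, 19.0% and 29.6% of all genes, against 16.6% with none of these changes. Nfkbia, which encodes the fast feedback inhibitor I-kappa-B alpha, stood at 718, 682 and 1187 CPM in MRC1+ and 793, 815 and 1847 CPM in CD11c+ TAMs. The first 2 libraries of the groups lay close together and the third stood above them in both, so that the group ranges overlapped. Its log2 fold change was -0.41 ± 0.35 (SE; edgeR adjusted p = 0.452, and 0.1001 with the block).

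The nuclear members did not pass the test without the block. Nfkbiz, which encodes the co-activator I-kappa-B zeta induced by Toll-like receptor signals, stood at 578, 600 and 1028 CPM in MRC1+ and 698, 778 and 1681 CPM in CD11c+ TAMs. Its log2 fold change was -0.51 ± 0.36 (SE; edgeR adjusted p = 0.353), and it passed with the block (0.0436). Bcl3, whose product binds p50 and p52 homodimers on DNA, was the lowest member, at 10.04, 16.3 and 18.8 against 13.5, 20.9 and 22.0 CPM. The ranges of Bcl3 overlapped, with a log2 fold change of -0.31 ± 0.26 (SE; edgeR adjusted p = 0.440, and 0.0742 with the block).

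Tnfaip3 stood at 667, 716 and 1567 CPM in MRC1+ and 857, 946 and 2274 CPM in CD11c+ TAMs. The third library of each group was the highest, and the third MRC1+ library lay above the first and second CD11c+ ones. Its log2 fold change was -0.46 ± 0.44 (SE, n = 3 per group; edgeR adjusted p = 0.504), and it passed with the block, at -0.43 ± 0.10 (0.0293). Within same-numbered pairs it was lower in all 3, by 0.36, 0.40 and 0.54 on the log2 scale. Over the 10 members, 8 were lower in every same-numbered pair, all but Rela and Nfkb2, beside 29.0% of all genes.

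**Figure D2:**
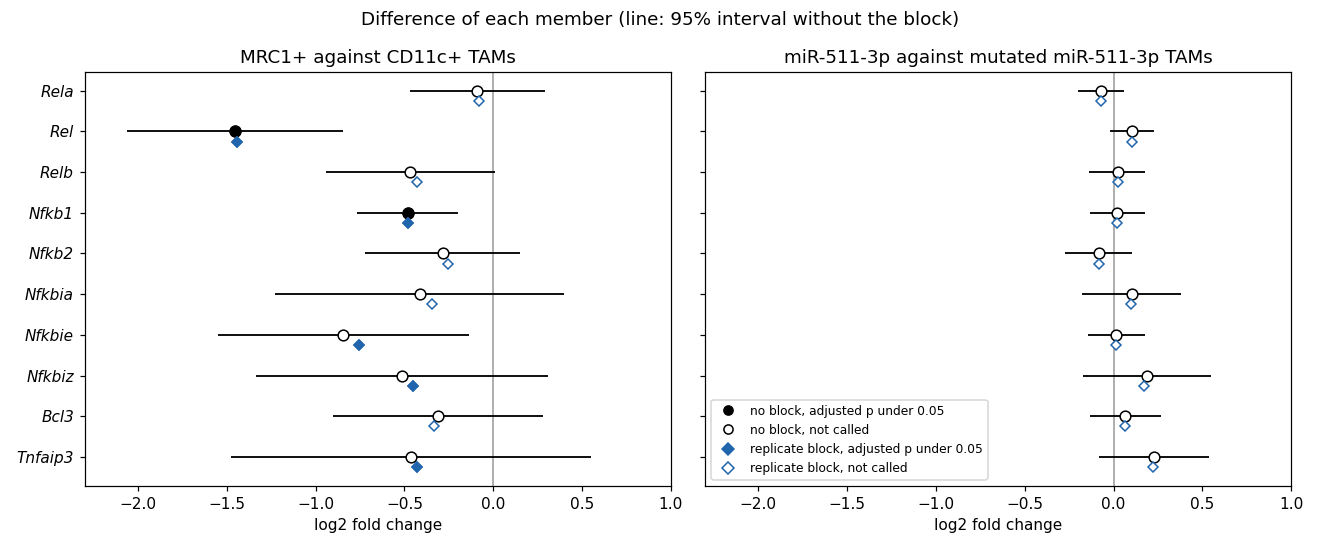
Log2 fold change of each member in both comparisons, with the 95% interval of the fit without a block (circles) and the value of the fit with the library number as a block (diamonds), filled where the adjusted p was under 0.05. In the sorted comparison 2 circles and 5 diamonds are filled, and in the overexpression comparison none.

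All 10 members, subunits included, were highest in the third library of both sorted groups, as were 14.3% of the 15622 genes tested. How far that library stood above the others differed between members. Tnfaip3 in the third library was 2.27-fold the mean of the other MRC1+ libraries and 2.53-fold that of the other CD11c+ libraries. The same ratios were 1.70 and 2.30 for Nfkbia and 1.75 and 2.28 for Nfkbiz. For the other feedback genes they were 1.28 and 1.88 (Nfkbie) and 1.47 and 1.31 (Bcl3). For the subunits they were 1.48 and 1.5 for Rel, 1.13 and 1.59 for Relb, 1.23 and 1.35 for Rela, 1.18 and 1.42 for Nfkb2 and 1.16 and 1.19 for Nfkb1, so that Rel was no lower than Bcl3 in either group. A ratio of at least 1.5 in both groups, a bound chosen after the values were seen, was met by Tnfaip3, Nfkbia and Nfkbiz, with Rel just short of it, and by 1.55% of all genes (242 of 15622). The summed level of 16 immediate-early and heat shock genes moved with it, at 4326, 3600 and 6014 CPM in MRC1+ and 4381, 4226 and 7510 CPM in CD11c+ TAMs, and the part of cell handling in these levels was not tested. Without the third library of both groups, 1 of 10 members passed, namely Rel. In that fit Nfkbia, Nfkbiz and Tnfaip3 stayed below 0, at -0.199, -0.325 and -0.381 on the log2 scale, none past the test. Leaving out CD11c+ library 3 alone, with the high MRC1+ library 3 kept, turned these genes to 0.11, 0.01 and 0.14, none past the test. CD11c+ library 3 held the fewest reads on genes of any, 10824918, and the part of depth was not tested.

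**Figure D3:**
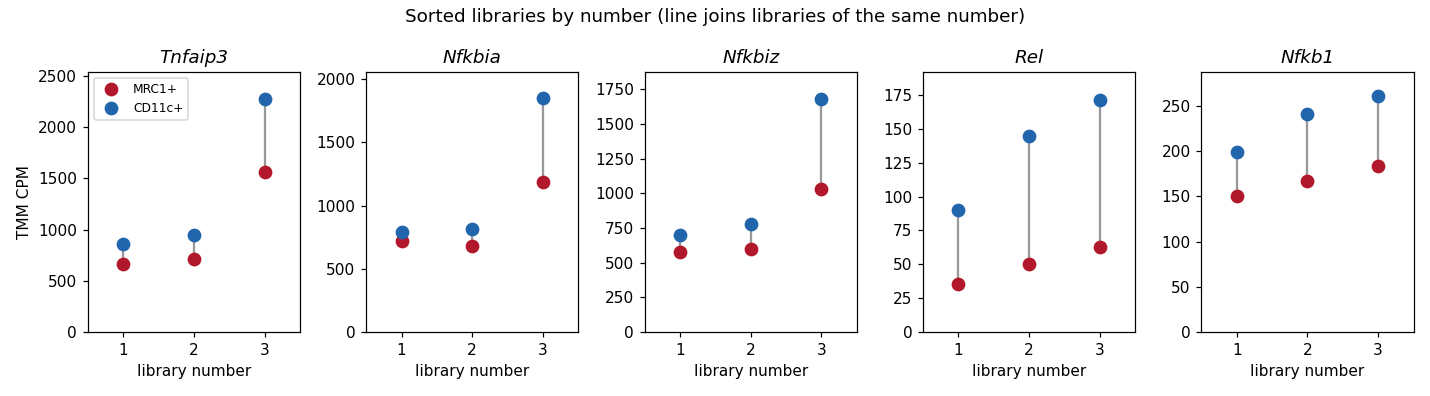
Level of 5 members in the sorted libraries by library number, in TMM CPM, with a line between MRC1+ and CD11c+ libraries of the same number. All 5 are highest in library 3 of both groups and lower in MRC1+ TAMs in all 3 pairs, and for Rel and Nfkb1 the 2 groups do not overlap.

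Per kilobase of exon, the members spanned a wide range of levels. In MRC1+ TAMs Nfkbia stood highest, at 536 ± 175 CPM per kilobase, followed by Nfkbiz at 147 ± 50.6 and Tnfaip3 at 136 ± 70.0 (SD, n = 3). Nfkbie stood at 48.9 ± 8.85 and Nfkb2 at 35.4 ± 3.76 CPM per kilobase. Rela (15.2 ± 2.08), Nfkb1 (13.8 ± 1.37) and Relb (10.7 ± 0.96) lay close together, and Rel (6.61 ± 1.81) and Bcl3 (6.08 ± 1.82) were lowest. The means of Nfkbia, Nfkbiz, Tnfaip3 and Nfkbie thus stood above those of the 5 subunits in these libraries. The order of Bcl3 and Rel turned with the length used, at 8.14 ± 2.44 and 6.61 ± 1.81 CPM per kilobase of the longest transcript. It also differed by group, since Bcl3 stood at 20.9 ± 2.24 and Rel at 17.9 ± 0.42 CPM per kilobase of exon in miR-511-3p TAMs. The place of Nfkb1 depends on the length used, since the union of its exons is 12061 bases and its longest transcript 4149 bases, which gives 40.2 ± 4.00 CPM per kilobase.

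Rel made up 6.61%, 8.22% and 9.11% of the per-length level of the 5 subunits in the MRC1+ libraries and 14.7%, 16.7% and 16.7% in the CD11c+ libraries. The shares of Rel did not overlap. Rela held 18.6% ± 0.28 in MRC1+ and 14.6% ± 0.73 in CD11c+ TAMs, and Nfkb2 43.3% ± 0.81 and 38.5% ± 1.10. Nfkb1 held 16.9% ± 0.38 and 17.6% ± 2.17, and Relb 13.2% in both (SD, n = 3). Dividing by the longest transcript lowered the Rel share to 5.49% and 11.0% and kept the CD11c+ share above the MRC1+ share. With that length Nfkb1 held 33.8% and 35.2%, and Nfkb2 35.5% and 31.6%, so their order depends on the length used. No test was made of these shares, which are not independent of each other.

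**Figure D4:**
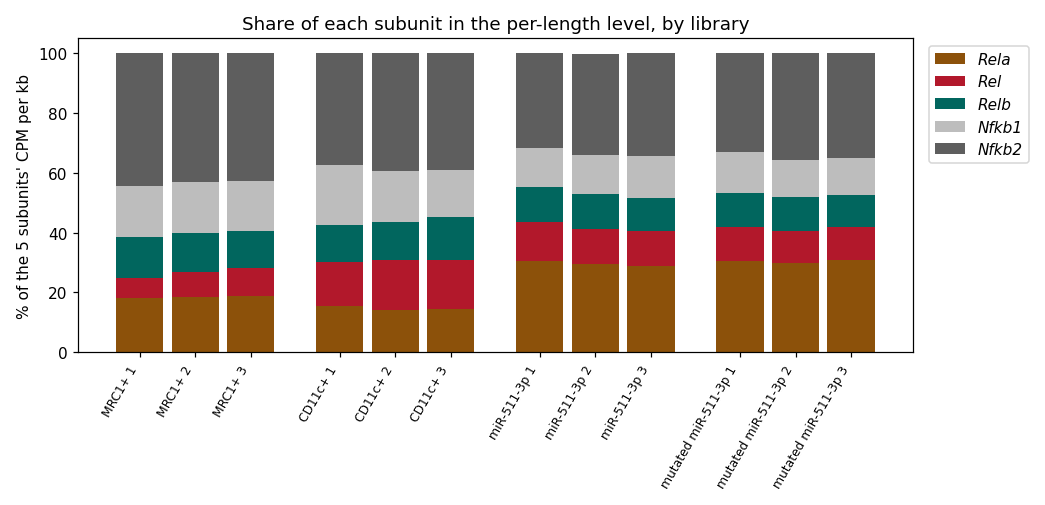
Share of each subunit in the summed per-length level of the 5 subunits, in percent, for each of the 12 libraries. The Rel segment is smaller in the MRC1+ (6.61% to 9.11%) than in the CD11c+ libraries (14.7% to 16.7%), and the Rela segment is larger in the overexpression libraries than in the sorted ones.

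Of 90 other genes of the pathway in 6 lists, 86 could be tested, and 1 was higher and 26 lower in MRC1+ TAMs, with a median log2 fold change of -0.33. Over all genes tested, 9.71% were called lower and 16.6% in either direction, against which the counts of this and the following lists are to be read. With the block 3 were higher and 38 lower, beside 10.6% of all genes lower and 17.8% in either direction. Of the 27 called genes, 9 passed in each of the 6 fits that left out 1 library. Another 9 passed only in the one without the first CD11c+ library, which called 29.6% of all genes. Among 11 kinases 4 were lower. Map3k14, which encodes NIK, the kinase of the alternative arm, stood at 25.2 to 30.3 CPM against 48.5 to 91.3 CPM (log2 fold change -1.35 ± 0.21; edgeR adjusted p = 0.00410). Ikbkb, which encodes the catalytic kinase of the classical arm, stood at 121 to 128 against 152 to 245 CPM (-0.71 ± 0.16; edgeR adjusted p = 0.0206). The groups did not overlap in either kinase gene, and Map3k14 kept its call in all 6 fits that left out 1 library. Ikbkb lost it without any 1 of the MRC1+ libraries or the second CD11c+ library, with edgeR adjusted p of up to 0.0728.

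Of 19 adaptors and ligases 7 were lower and none higher. Malt1, the paracaspase that links antigen and lectin receptors to the pathway and cleaves A20, was the most changed, at 120, 125 and 169 CPM in MRC1+ and 349, 563 and 779 CPM in CD11c+ TAMs (log2 fold change -2.03 ± 0.28; edgeR adjusted p = 0.00228). Myd88, the adaptor of Toll-like and interleukin-1 receptors, differed less, at 55.2 to 58.0 against 74.1 to 102 CPM (-0.70 ± 0.13; edgeR adjusted p = 0.00805). Both passed in all 6 fits that left out 1 library, and Myd88 was lost without the third library of both groups (edgeR adjusted p = 0.0835).

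Of 16 other feedback inhibitors 5 were lower and none higher. Tnip3, whose product binds A20, stood at 57.5, 47.7 and 84.2 CPM against 158, 158 and 344 CPM (log2 fold change -1.79 ± 0.34; edgeR adjusted p = 0.00986). The third library was again the highest in both groups. Cyld, a deubiquitinase of the same step, differed by less, at 109 to 118 against 148 to 168 CPM (-0.46 ± 0.08; edgeR adjusted p = 0.00917, and 0.0983 without the third library of both groups). The 3 remaining inhibitor family genes, Nfkbib, Nfkbid and Nfkbil1, did not pass, with log2 fold changes of -0.60, -0.46 and -0.08. Of the 5 receptors of the alternative arm that could be tested, 1 was lower, Tnfrsf1b (-0.63 ± 0.16; edgeR adjusted p = 0.0305), which kept its call without the first CD11c+ library and lost it without any other (edgeR adjusted p of up to 0.110). Cd40 stood at 45.3 to 48.0 against 50.6 to 93.7 CPM (edgeR adjusted p = 0.0522, and 0.0453 with the block).

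Of 32 target genes 9 were lower and 1 higher in MRC1+ TAMs, and with the block 18 were lower and 3 higher, beside 9.71% and 10.6% of all genes called lower without and with the block. Il12b, the textbook target of c-Rel, stood at 1.11 to 1.72 CPM against 13.3 to 34.7 CPM (log2 fold change -3.88 ± 0.40; edgeR adjusted p = 0.000533). Ccl22, a chemokine made by dendritic cells as well as macrophages, stood at 1.57 to 2.38 against 38.8 to 94.2 CPM (-4.78 ± 0.43; edgeR adjusted p = 0.000296). Il1b stood at 1149, 1174 and 1622 CPM against 2586, 3561 and 6266 CPM (-1.65 ± 0.31; edgeR adjusted p = 0.00970). Ccl2, the monocyte chemokine, was the 1 target called higher, at 663 to 839 against 301 to 500 CPM (0.99 ± 0.19; edgeR adjusted p = 0.00994). These 4 target genes passed in all 6 fits that left out 1 library. The dendritic cell markers given above differed in the same direction as Il12b and Ccl22, and their part in these values was not tested.

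**Figure D5:**
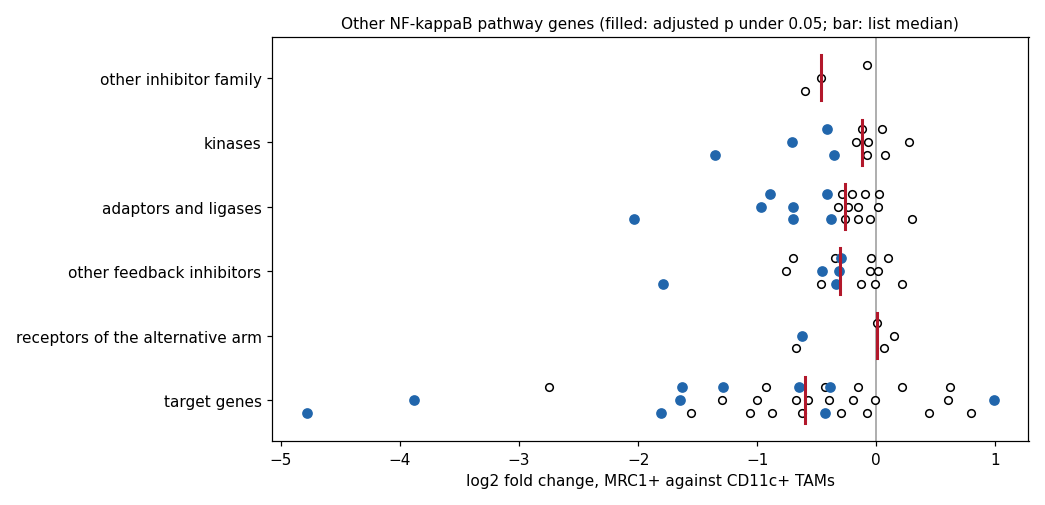
Log2 fold change of every tested gene of the 6 other pathway lists in MRC1+ against CD11c+ TAMs, filled where the adjusted p was under 0.05, with a bar at each list's median. Filled points lie to the left of 0 in every list that has any, with Ccl2 as the 1 filled point to the right.

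The overexpression experiment asks what miR-511-3p changes in TAMs when compared with a form whose sequence is mutated. A microRNA pairs with messenger RNAs through its seed, bases 2 to 8, shown in capitals in the RefSeq mature sequence from chr2:14261051-14261072 (GRCm38.p6, plus strand).

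miR-511-3p: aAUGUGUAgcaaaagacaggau

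Of the 10 members, 1 had a match to the seed in its 3′ UTR, the longest annotated for the gene: Rela, whose 714-base UTR held a 7-base match starting at base 65. Such matches were in 19.5% of 20952 genes with a 3′ UTR. The match in Rela, in capitals with 8 bases on each side, is shown because Rela is the only member with one.

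Rela site: gaagtgcgTACACATtctgggga

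No member passed the test between the miR-511-3p and the mutated miR-511-3p TAMs. By edgeR's quasi-likelihood test 0 of 14054 genes passed (0.0%), 343 had an unadjusted p under 0.05, and none of the members was among these. DESeq2 called 1 gene and limma-voom 0, in neither case a member. The members' log2 fold changes ran from -0.08 to 0.23, with a median of 0.04 against 0.00 over all genes.

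Rela stood at 133, 135 and 132 CPM with miR-511-3p and 137, 146 and 139 CPM with the mutated form. Every miR-511-3p library lay below every control library, by a log2 fold change of -0.07 (95% interval -0.20 to 0.06; edgeR unadjusted p = 0.226, adjusted p = 0.9999). Rel stood at 137, 131 and 132 CPM against 125, 127 and 122 CPM, with all 3 miR-511-3p libraries above the controls and a log2 fold change of 0.10 (95% interval -0.02 to 0.23). Groups without overlap were found for these 2 members and for 6.24% of all genes in either direction. The intervals leave room for a fall of Rela by up to 0.20 and a rise of Rel by up to 0.23 on the log2 scale.

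The other subunits lay within the spread of the libraries. Relb ranged from 63.5 to 68.2 CPM with miR-511-3p and from 60 to 69.1 CPM with the mutated form. Nfkb1 ranged from 220 to 248 against 218 to 241 CPM, and Nfkb2 from 206 to 236 against 224 to 260 CPM. The 95% intervals of these 3 log2 fold changes lay between -0.28 and 0.18.

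Among the feedback members the second miR-511-3p library was the highest of 6 for Nfkbia, Nfkbiz, Bcl3 and Tnfaip3. Tnfaip3 stood at 628, 759 and 554 CPM against 498, 587 and 580 CPM, with a log2 fold change of 0.23 (95% interval -0.08 to 0.54). Nfkbiz stood at 553, 845 and 658 CPM against 581, 573 and 657 CPM, with 0.19 (-0.17 to 0.55). The immediate-early and heat shock genes were also highest in that library, at 7487 CPM against 5082 to 6131 CPM in the other 5, and their part in these values was not tested. Without that library the log2 fold changes were 0.10 for Tnfaip3, 0.01 for Nfkbiz, -0.01 for Nfkbia and -0.02 for Bcl3. Nfkbia ranged from 458 to 602 against 450 to 534 CPM, Nfkbie from 266 to 288 against 258 to 283 CPM, and Bcl3 from 46.4 to 57.5 against 48.1 to 51.7 CPM. Of the 84 other pathway genes tested none passed, with a median log2 fold change of 0.02. Nfkbid had the lowest p of its list, with 146, 174 and 152 CPM against 116, 139 and 131 CPM (0.30 ± 0.10; edgeR unadjusted p = 0.0172, adjusted p = 0.9999).

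Across the 4 groups the members fell into different orders, and the 2 experiments were not compared by a test because gate, construct and library set cannot be told apart. The share of reads over no gene also differed, at 19.7% to 26.6% in the sorted and 7.64% to 10.4% in the overexpression libraries. Rela lay at 39.1 to 60.1 CPM in the 6 sorted and 132 to 146 CPM in the 6 overexpression libraries, and Bcl3 at 10.04 to 22.0 and 46.4 to 57.5 CPM. Those ranges did not overlap. Rel and Nfkb1 gave another order, with the MRC1+ libraries apart and lowest, and the CD11c+ range reaching into that of the overexpression libraries. Nfkbie, Relb and Nfkb2 were lowest on average in MRC1+ TAMs but overlapped with the CD11c+ group. Nfkbia ran the other way, at 450 to 602 CPM in the overexpression and 682 to 1847 CPM in the sorted libraries. Tnfaip3 and Nfkbiz overlapped between neighbouring groups throughout.

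The genes most like each member were sought over the 12 libraries, after centring each experiment on its own mean, among 9609 genes. These coefficients are descriptions, since same-numbered libraries deviated together and the groups differ in cell makeup. The closest to Nfkbia were Junb (Pearson r = 0.987, Spearman rho = 0.993), Dusp1 (0.986, 0.993) and Tnfaip3 (0.981, 0.979). Those closest to Tnfaip3 were Junb (0.982, 0.986), Nfkbia and Zfp36 (0.979, 0.951). Junb, Dusp1 and Zfp36 are immediate-early genes, and all 3 are in the list whose sum was highest in the third library of both sorted groups. Nfkbiz was closest to Sde2 (0.993, 0.979) and Socs3 (0.966, 0.909). Rel was closest to Kcna3 (0.983, 0.937), Spty2d1 (0.980, 0.923) and Fem1c (0.979, 0.874). The 3 genes closest to Relb were Nr1h2, Oser1 and Nfkbie (0.967, 0.839), and those closest to Nfkb2 were Vps37c, Nfkbib (0.950, 0.909) and Sbno2. Among the members, Rel and Nfkb1 varied together (Pearson r = 0.968), as did Nfkbia, Nfkbiz and Tnfaip3 (0.944 to 0.981), while Rel and Rela were the least alike (0.579).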

How the data were processed

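Libraries were prepared with an Illumina TruSeq RNA kit, per the labels' protocols. Per the submitters' processing notes, the build was mm9 (NCBIM37) and the tools were HTSeq, SAMtools 0.1.12a, TopHat 1.2.0 and Bowtie, with no role or order given. How HTSeq counted, and whether by strand, is not given in the labels, so reads of antisense or overlapping genes cannot be told apart. The deposited tables hold whole-number read counts per Ensembl gene made by the authors, not normalized. Entries that name no gene were left out of library sizes and tests. Symbols and lengths came from GENCODE M21 (GRCm38), and promoter and microRNA sequences from RefSeq (GRCm38.p6). Groups were tested with edgeR 4.0.16 (R 4.3.3; TMM, filterByExpr, quasi-likelihood, two-sided, Benjamini-Hochberg adjustment over all genes tested, threshold 0.05), within each experiment. The script was tested on simulated data. Alternatives were DESeq2 1.42.0, limma-voom 3.58.1, RLE, upper-quartile and library-total scaling, no filter, a filter of 5 CPM in 3 libraries, all 12 libraries, a replicate block, leaving out each library and other gene lengths. Likeness between genes used log2 CPM with a prior count of 2.

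Replicate numbers come from the labels, which do not say that they mark a shared mouse or day. Same-numbered libraries' deviations from their group means correlated at 0.104, 0.337 and 0.250 in the sorted and 0.147, 0.258 and 0.462 in the overexpression experiment, so the numbers were treated as pairs. The first miR-511-3p library correlated as much with the second control library (0.166). Members and lists were chosen with earlier results of these data known. All 10 members are named, up to 4 genes of lowest p in each other list, and up to 3 most-like genes per member. Psmb9 is not analysed here.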

Additional observations from a re-analysis of the deposited data

How the results depend on the processing

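The number of members called in the sorted comparison was 2 and became 1 with library totals, 5 with the replicate block, 1 without the third library of both sorted groups, 5 without the first library of both, and 1 to 5 when 1 library was left out. The share of all genes called, 16.6% before, became 17.6% with library totals and 17.8% with the block. It was 6.01% and 28.0% without the third or the first library of both groups, and 8.02% to 29.6% when 1 library was left out. The cause of these changes was not tested. Rel passed in each of these fits. The count of other pathway genes called was 27 and became 41 with the replicate block and 12 without the third library of both groups. It was 9 to 45 when 1 library was left out. These counts are to be read against the shares of all genes given above for the same fits. The fits without the first or the third library of both groups, and the protein-coding length below, were chosen after seeing the data. The Rel share in MRC1+, CD11c+, miR-511-3p and mutated miR-511-3p TAMs was 5.49%, 11.0%, 8.86% and 8.09% with the longest transcript and 5.21%, 10.5%, 8.44% and 7.72% with the longest protein-coding transcript, which divide by other lengths. In the sorted comparison Rela turned to 0.047 with library totals. Without library 3 of both sorted groups Rela, Nfkbia, Nfkbiz and Tnfaip3 stood at -0.046, -0.199, -0.325 and -0.381. Leaving out 1 library gave -0.241 to 0.071 for Rela, -0.72 to 0.11 for Nfkbia, -0.843 to 0.008 for Nfkbiz and -0.98 to 0.14 for Tnfaip3, and no value above 0 was past the threshold. In the overexpression comparison the same ranges were -0.022 to 0.069 for Relb, -0.016 to 0.058 for Nfkb1, -0.007 to 0.194 for Nfkbia, -0.033 to 0.040 for Nfkbie, -0.016 to 0.134 for Bcl3, 0.009 to 0.318 for Nfkbiz and 0.097 to 0.331 for Tnfaip3, and Nfkbie turned to -0.001 with library totals. No member was called there under any setting run, the replicate block included. Of 40 mean levels, 8 moved by more than 1 SD with library totals. Bcl3, with as few as 169 reads in a library, is the member whose precision depth limits most.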
